A study of Mus musculus with 11 samples.

Results

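Cluster 1 is the largest of 4 numbered cell groups that the depositing authors defined among single cells of the mouse stellate ganglion. Its members were taken from the authors' cluster number in the deposited cell annotation, and they are 388 of 878 cells. This ganglion sits low in the neck and sends sympathetic fibres to heart, forelimb and brown fat. All 6 donors were male C57BL/6J mice, 6 to 8 weeks old, with no genetic change named in the labels. Every mouse had received 2 retrograde tracers 3 days before harvest, CTB-488 in a forelimb and CTB-555 in the brown fat between the shoulder blades (iBAT). Each of 3 sets pooled the tissue of 2 mice, spread over 11 plates in all, so the set is the replicate (n = 3) and no value belongs to a single mouse. Every cell came from a traced mouse, no untreated animals were analysed here, and the tracer of a given cell was not used here. Cluster 1 is compared below with cluster 2 (335 cells), the other large noradrenergic group, and with cluster 4 (54 cells), which holds the genes for acetylcholine transport.

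Most postganglionic sympathetic neurons make noradrenaline from tyrosine through tyrosine hydroxylase (Th), dopa decarboxylase (Ddc) and dopamine beta-hydroxylase (Dbh), load it into vesicles with the transporter Slc18a2 and take it back up with Slc6a2. Many of them also release peptides from large dense-core vesicles, among them neuropeptide Y (Npy), a vasoconstrictor that strengthens the action of noradrenaline, and galanin (Gal), which dampens release from neighbouring nerve endings. Granins such as chromogranin A (Chga) help build those vesicles, and prohormone convertases cut the peptides to size inside them. A smaller class of sympathetic neurons releases acetylcholine and vasoactive intestinal peptide (Vip).

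The share of cells in cluster 1 was 46.8% in Set 1 (156 of 333 cells), 42.9% in Set 2 (140 of 326) and 42.0% in Set 3 (92 of 219), a mean of 43.9% ± 2.57 (SD, n = 3). Over all cells the share was 44.2% (95% exact binomial interval 40.9% to 47.5%, which covers counting error only), and single plates gave 38.0% to 57.5%.

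Cells of cluster 1 gave fewer reads' worth of counts than those of clusters 2 and 4. The median cluster 1 cell held 28396 counts and 6003.5 detected genes, against 40121 counts in cluster 2 and 35488.5 in cluster 4. The ratio of medians to cluster 2 was 0.708 ± 0.0481 (SD, n = 3 sets) and that to cluster 4 was 0.791 ± 0.0604, below 1 in 3 of 3 sets both times. Once every cell was thinned at random to 10000 counts, the detected genes of cluster 1 were 0.994 times those of cluster 2 and 1.00 times those of cluster 4. Thinning kept 384 of 388 cells of cluster 1, 329 of 335 of cluster 2 and 54 of 54 of cluster 4, and results called "at equal depth" below come from these cells. Each plate used the same pool of 96 well barcodes, all of which occur in 2 or more plates and 13 in every plate.

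Levels below are counts per 10000 counts of a cell, averaged over the cells of a set. Log2 differences are cluster 1 minus the other cluster, computed from log2(1 + counts per 10000) averaged over the cells of a set, which makes them smaller than true fold changes where a gene is low. They come from a limma fit over 10564 genes with the set in the model, two-sided, with Benjamini-Hochberg adjustment over all genes and a gene called at an adjusted p under 0.05. The clusters had been drawn from these same cells, so a p-value here says how well a difference repeats over the 3 sets and is no independent test that the cluster exists. The sets of cluster 4 rest on 12, 24 and 18 cells.

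Npy was the most abundant of the 8 genes that mark the cluster. Cluster 1 held 199, 181 and 170 counts per 10000 in Sets 1, 2 and 3, cluster 2 held 29.2, 14.1 and 33.9, and cluster 4 held 4.29, 3.91 and 2.22. Every set of cluster 1 lay far above every set of the other clusters. The mean in cluster 1 was 7.12 times that in cluster 2 (log2 difference 3.78, SE 0.40, adjusted p = 0.0100) and 52.7 times that in cluster 4 (5.44, SE 0.40, adjusted p = 0.00138). Without Set 1 the differences were 4.00 and 5.55, with adjusted p = 0.191 and 0.0562, so both calls were lost in that fit.

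Gal followed the same order. Its level was 60.9, 44.2 and 56.2 in the 3 sets of cluster 1, 11.7, 6.68 and 11.9 in cluster 2, and 2.46, 2.59 and 1.19 in cluster 4. No set of cluster 1 reached down to the other clusters. The log2 difference was 2.41 (SE 0.27, adjusted p = 0.00982) from cluster 2 and 3.98 (SE 0.27, adjusted p = 0.000771) from cluster 4, and without Set 1 the adjusted p was 0.168 and 0.0349. Against cluster 2 it was 0.000144 without Set 2 and 6.34e-05 without Set 3, so that call was lost only without Set 1.

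Fst encodes follistatin, a secreted protein that binds and blocks activins. It stood at 2.29, 2.80 and 2.66 counts per 10000 in cluster 1, at 0.0295, 0.0799 and 0.0643 in cluster 2 and at 0.0156, 0.0384 and 0 in cluster 4. The log2 difference was 1.60 (SE 0.0498, adjusted p = 8.09e-11) from cluster 2 and 1.63 from cluster 4. At equal depth 311 of 384 cluster 1 cells (81.0%) held at least 1 Fst count, against 11 of 329 (3.34%) in cluster 2 and 0 of 54 in cluster 4. Before thinning these shares were 92.8%, 8.36% and 3.7%. Fst was thus found in most cells of the cluster and in few cells of clusters 2 and 4.

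Sctr and Rxfp1 encode the receptors for secretin and for relaxin. Sctr measured 1.53, 1.56 and 2.17 in cluster 1 and 0.0221 to 0.112 over all sets of clusters 2 and 4. Rxfp1 measured 1.10, 1.59 and 1.22 in cluster 1 and 0 to 0.145 over the sets of clusters 2 and 4. At equal depth Sctr was present in 71.4% of cluster 1 cells, 3.04% of cluster 2 cells and 5.56% of cluster 4 cells, and Rxfp1 in 70.1%, 5.17% and 3.7%. The log2 differences from cluster 2 were 1.23 for Sctr (SE 0.0562) and 1.02 for Rxfp1 (SE 0.0492), with adjusted p = 2.71e-09 and 3.55e-09.

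The other 3 markers were high in cluster 1 without being near absent in clusters 2 and 4. Epha5, a receptor tyrosine kinase for ephrins, averaged 7.36 ± 1.13 (SD, n = 3), against 2.24 ± 0.352 in cluster 2 and 1.87 ± 0.759 in cluster 4. Ncald, the calcium sensor neurocalcin delta, averaged 10.8 ± 0.617, 4.22 ± 0.442 and 2.26 ± 0.211. Chga averaged 4.31 ± 0.548, 1.04 ± 0.0838 and 1.62 ± 0.105. All 8 markers were called higher in both comparisons, as were 2.34% of all tested genes. The sets of cluster 1 did not overlap those of either cluster for any marker. These genes were given beforehand as markers of cluster 1, so this result is no independent support for the cluster. Counted per cell at equal depth, 355 of 384 cluster 1 cells (92.4%) held a count of at least 6 of the 8 markers, as did 24 of 329 cells of cluster 2 (7.29%) and 1 of 54 of cluster 4 (1.85%). The clusters were drawn from these same cells, so the per-cell shares describe the markers and do not test the cluster.

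**Figure D1:**
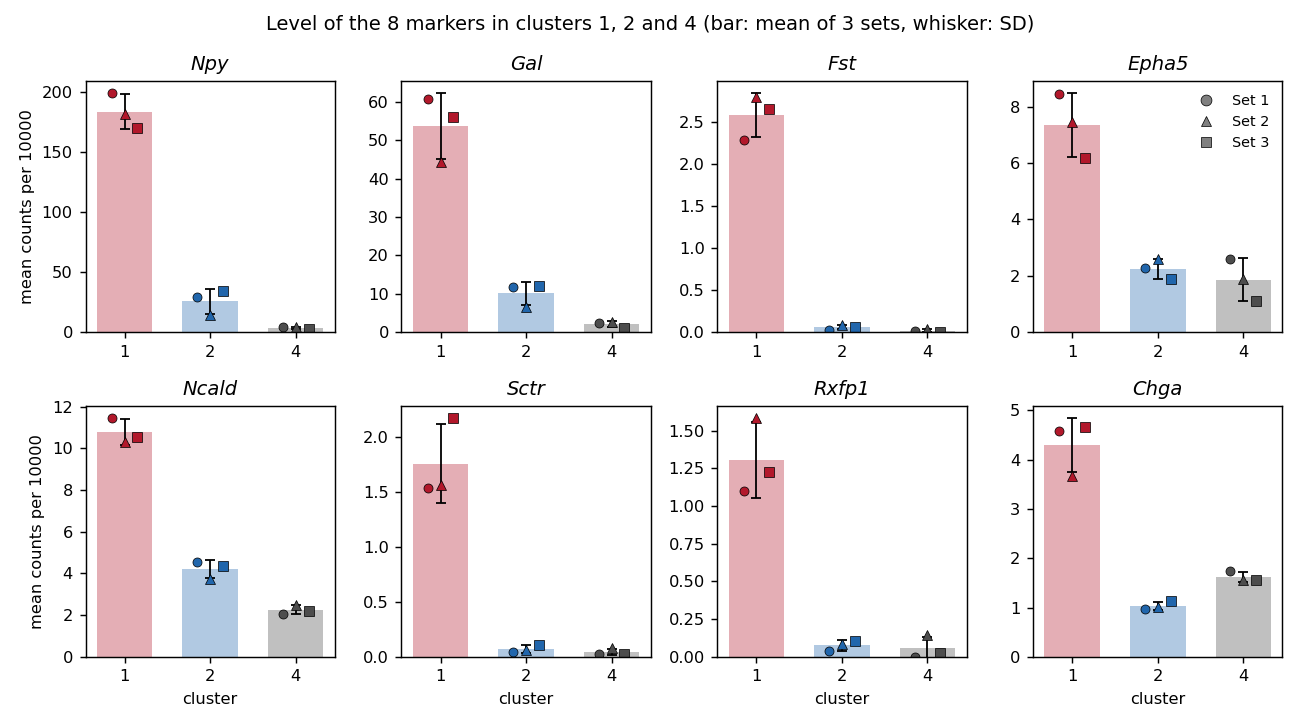
Level of the 8 marker genes (y axis: mean counts per 10000, linear) in clusters 1, 2 and 4 (x axis); symbols are the 3 sets, bars their mean and whiskers the SD. Cluster 1 lies above both other clusters in every set for every marker, from Npy at 183 to Rxfp1 at 1.30.

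Seen cell by cell, cluster 1 overlapped cluster 2 in both peptides. At equal depth the median cluster 1 cell held 192.5 Npy counts, with 107.5 at the 10th and 257.7 at the 90th percentile, against a median of 11 in cluster 2 and 3 in cluster 4. Only 1 of 384 cluster 1 cells lay below the cluster 2 median, and 75 (19.5%) lay above the highest cluster 2 cell. For Gal, with a median of 54, 18 cells (4.69%) lay below the cluster 2 median of 7 and 173 (45.1%) above the highest cluster 2 cell. Npy thus left fewer cluster 1 cells under the cluster 2 median. The 19.5% rests on 1 cluster 2 cell with 235 Npy counts, since the next highest held 192, just under the cluster 1 median. The shares above the highest cell therefore do not rank Npy against Gal. Against cluster 4, 382 cells (99.5%) exceeded its highest Npy cell and 341 (88.8%) its highest Gal cell.

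**Figure D2:**
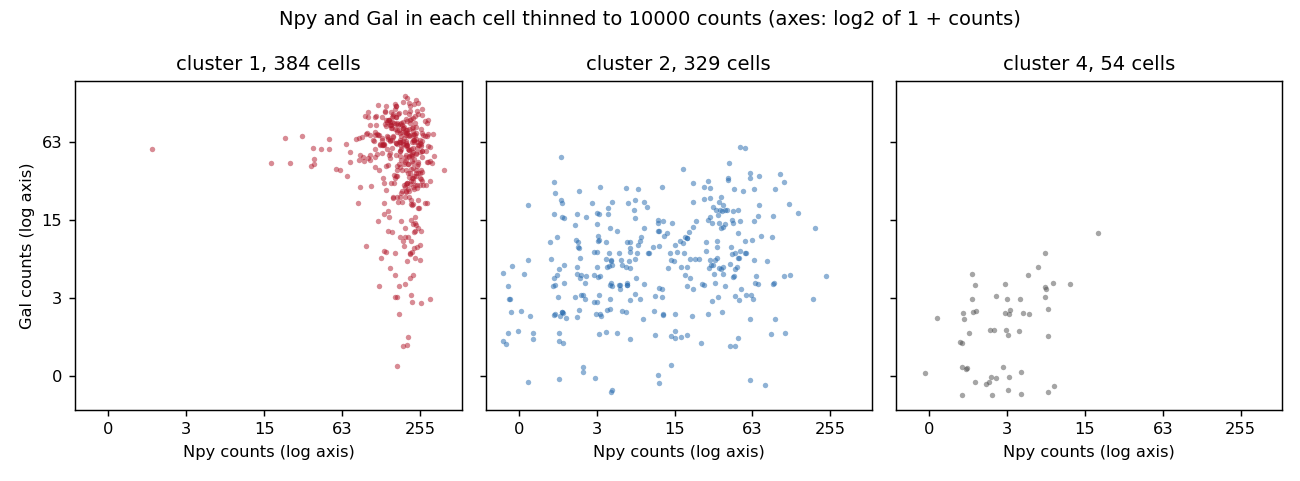
Npy counts (x axis) and Gal counts (y axis) of each cell thinned to 10000 counts, both on a log2(1 + counts) scale with a small random offset to part tied points; 1 panel per cluster. Cluster 1 cells crowd near 192.5 Npy counts and spread widely along Gal, while cluster 2 cells spread along Npy.

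The promoter windows of 3 of these genes are given because Npy and Gal name the cluster and because Gal and Chga went up and down together from cell to cell inside it, as described further down. RefSeq windows on build GRCm38.p6, running from 250 bases before to 50 bases after the annotated start of transcription, matched 4 of the 8 markers by symbol. Capitals mark the letters TGACG, the core of the cyclic AMP response element, and CANNTG, the E-box bound by basic helix-loop-helix factors, on either strand. They are written 5′ to 3′ along the gene's own strand, at chr6:49822460-49822759 (plus strand) for Npy, chr19:3414495-3414794 (minus strand) for Gal and chr12:102554691-102554990 (plus strand) for Chga.
Npy: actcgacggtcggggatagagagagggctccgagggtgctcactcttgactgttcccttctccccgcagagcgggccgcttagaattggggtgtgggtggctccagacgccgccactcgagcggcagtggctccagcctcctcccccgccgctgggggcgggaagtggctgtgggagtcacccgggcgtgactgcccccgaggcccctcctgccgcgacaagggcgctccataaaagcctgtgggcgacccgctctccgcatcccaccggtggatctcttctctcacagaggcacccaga
Gal: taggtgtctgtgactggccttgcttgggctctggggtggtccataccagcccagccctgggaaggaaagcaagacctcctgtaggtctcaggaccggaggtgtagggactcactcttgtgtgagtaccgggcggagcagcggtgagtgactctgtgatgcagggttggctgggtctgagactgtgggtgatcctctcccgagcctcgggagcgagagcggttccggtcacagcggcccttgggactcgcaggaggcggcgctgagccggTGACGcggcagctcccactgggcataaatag
Chga: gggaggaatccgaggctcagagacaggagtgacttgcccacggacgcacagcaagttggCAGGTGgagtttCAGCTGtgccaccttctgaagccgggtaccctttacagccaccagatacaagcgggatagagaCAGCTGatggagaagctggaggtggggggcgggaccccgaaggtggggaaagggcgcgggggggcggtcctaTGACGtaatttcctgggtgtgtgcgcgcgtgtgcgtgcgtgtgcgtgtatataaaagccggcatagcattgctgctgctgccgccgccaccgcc
The Gal and Chga windows each held 1 TGACG, starting 19 bases after and 44 bases before the start of transcription, and the Npy window held none. Chga held 3 CANNTG matches, and neither Npy nor Gal held any. Neither TGACGTCA, the full response element, nor TGANTCA, the AP-1 site, occurred in the 4 matched windows. Of all 32851 promoter windows of the same length 20.8% held TGACG, 1.79% TGACGTCA, 72.3% CANNTG and 7.81% TGANTCA on either strand. Among 267 windows of genes higher in cluster 1 than in both other clusters the shares were 23.6%, 3.00%, 65.5% and 6.74%, beside 32.5%, 3.33%, 63.1% and 4.73% among 9822 windows of all tested genes. A match describes letters only.

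The transcribed regions of the markers lie on build GRCm38 (GENCODE M21) at chr6:49822710-49829507 for Npy, chr19:3409915-3414544 for Gal, chr13:114452290-114458951 for Fst, chr5:84054761-84417382 for Epha5, chr15:37366175-37792570 for Ncald, chr1:120006894-120063536 for Sctr, chr3:79641611-79737880 for Rxfp1 and chr12:102554969-102565028 for Chga. All are protein-coding.

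Against cluster 2, 936 of 10564 genes were called (8.86%), 379 higher (3.59%) and 557 lower (5.27%) in cluster 1. Against cluster 4, 2254 were called (21.3%), 1002 higher (9.49%) and 1252 lower (11.9%). Higher than both were 247 genes (2.34%) and lower than both were also 247 (2.34%). The median log2 difference over all tested genes was -0.01 in each comparison. At equal depth the counts against cluster 2 were 176 higher and 170 lower, and on summed counts scaled by median-of-ratios size factors they were 482 and 447, so the excess of lower genes against cluster 2 was not kept under those settings. In all, 346 of 10567 genes were called against cluster 2 at equal depth and 1153 against cluster 4. Counts of called members in the gene lists below are to be read beside these shares of all genes.

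Besides Npy, Gal, Fst, Epha5 and Chga, the genes furthest above cluster 2 were Crip1, B230312C02Rik, Pcp4, S100a6 and Bub3. Crip1, a small LIM-domain protein, stood at 26.5, 26.5 and 22.4 counts per 10000 against 7.39, 5.47 and 9.07 in cluster 2 (log2 difference 2.11, SE 0.22, adjusted p = 0.00687). Cluster 4 held 19.4, 25.2 and 23.4, and its sets overlapped those of cluster 1 (0.30, adjusted p = 0.429). Pcp4, a calmodulin-binding peptide, stood at 3.27, 3.7 and 2.53 against 0.0750, 0.129 and 0.219 in cluster 2 (1.62, SE 0.10, adjusted p = 2.32e-07) and 0.571 to 2.01 in cluster 4 (0.95).

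The long non-coding RNA B230312C02Rik was higher than in both clusters. It measured 8.31, 7.49 and 11.6 in cluster 1, 1.80, 0.983 and 2.63 in cluster 2 and 0.465, 0.567 and 1.26 in cluster 4, with log2 differences of 1.92 (adjusted p = 1.55e-09) and 2.42 (adjusted p = 2.05e-11). Bub3, known from the mitotic checkpoint, was higher than in cluster 2 by 1.29 and than in cluster 4 by 1.00. S100a6, a small calcium-binding protein, measured 19.5, 15.0 and 15.2 in cluster 1, 7.15, 3.39 and 7.09 in cluster 2 and 0.456, 0.525 and 0.267 in cluster 4. Its difference from cluster 2 was 1.60 (adjusted p = 0.0120), and that call was lost with size factors on summed counts (adjusted p = 0.142) and with a pseudocount of 0.1 (0.102).

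Furthest below cluster 2 were Fxyd2, Tm4sf4, Cyp2j12, Dmkn, Gnas, Thy1, Atp6v1b2, Nbl1, Rgs10 and Edn3. Fxyd2, which modulates the sodium pump, measured 8.52, 7.07 and 6.91 against 22.9, 22.2 and 18.2 in cluster 2 (-1.50, SE 0.06, adjusted p = 8.27e-10), while cluster 4 held 6.22 to 7.56 and was not called different (-0.01, SE 0.06). Atp6v1b2, a subunit of the proton pump of acid vesicles, also lay below cluster 2 with no call against cluster 4, at 7.71, 6.44 and 10.6 against 15.8, 13.9 and 23.3 (-1.02, adjusted p = 1.84e-09). Edn3, the precursor of endothelin 3, measured 0.0678, 0.0959 and 0.0421 in cluster 1 and 1.09 to 2.05 over the sets of clusters 2 and 4. No set of cluster 1 reached those of the other clusters. Gnas, the alpha subunit of the stimulatory G protein, also went down from both, with 0.974, 1.05 and 1.06 in cluster 1, 2.66 to 4.47 in cluster 2 and 7.48 to 8.37 in cluster 4 (-1.14 and -2.15, adjusted p = 5.49e-06 and 5.39e-09). The Gnas locus overlaps annotated genes on both strands, and no source used here says whether reads were counted by strand.

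Against cluster 4 the largest gains besides Npy, Gal, S100a6, B230312C02Rik and Ncald were in Slc6a2, Slc31a1, Cplx2, Maob and Rab3b, and the largest losses in Vip, Htr3a, Cartpt, Slc18a3, Ass1, Gnas, Ddah1, Cdkn1a, Tmem176b and Gadd45g. Vip stood at 0.150, 0.353 and 0.140 counts per 10000 in cluster 1 and at 57.8, 54.8 and 49.6 in cluster 4 (-5.21, SE 0.07, adjusted p = 2.89e-16). At equal depth 67 of 384 cluster 1 cells (17.4%) held a Vip count and none more than 4, while the median cluster 4 cell held 54.5. Cplx2, a complexin that steadies vesicles before release, measured 10.8, 9.82 and 8.29 against 1.57, 1.71 and 0.946 in cluster 4 (2.24, adjusted p = 3.86e-13). Rab3b, a vesicle GTPase, measured 17.1, 17.9 and 13.6 against 4.14, 4.43 and 1.95 (2.14, adjusted p = 1.23e-09). Neither differed beyond the threshold from cluster 2 (adjusted p = 0.0917 and 0.104).

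Genes that make, store, recover and break down noradrenaline could all be tested, 15 of 15. Cluster 1 was higher than cluster 4 in 11 of them and lower in 2, with a median log2 difference of 1.52, and against cluster 2 it was higher in 2 and lower in 7, with a median of -0.18. Of all tested genes 9.49% were higher and 11.9% lower than in cluster 4, and 3.59% and 5.27% than in cluster 2. Th stood at 45.7, 39.2 and 62.2 counts per 10000 in cluster 1, 55.1, 52.7 and 81.1 in cluster 2 and 21.6, 17.5 and 34.7 in cluster 4. Within each set cluster 1 was below cluster 2 and above cluster 4, although the ranges over sets of clusters 1 and 2 overlap. The log2 difference of Th was -0.36 from cluster 2 (SE 0.05, adjusted p = 0.000422) and 1.52 from cluster 4 (adjusted p = 4.00e-11).

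Dbh, which turns dopamine into noradrenaline, repeated this order. It measured 21, 22.9 and 22.1 in cluster 1, 26.9, 30.7 and 25.4 in cluster 2 and 6.64, 7.59 and 6.30 in cluster 4 (-0.32 and 1.67, adjusted p = 0.000240 and 2.63e-12). Slc6a2, the reuptake transporter, measured 16.3, 20.1 and 12.8 against 22.6, 26.6 and 15.5 in cluster 2 (-0.38, adjusted p = 0.000419) and 0.955 to 2.62 in cluster 4 (2.75, adjusted p = 1.20e-13). Slc18a2, the vesicle transporter, did not differ beyond the threshold from cluster 2 (-0.03, SE 0.08, adjusted p = 0.933). It was 10.4 times its cluster 4 level.

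The monoamine oxidases parted. Maob measured 5.28, 5.13 and 6.24 in cluster 1, 2.55, 2.72 and 3.33 in cluster 2 and 0.413, 0.416 and 0.457 in cluster 4, so that it was higher than in both (0.76 and 2.16, adjusted p = 5.99e-07 and 2.72e-12). Maoa measured 8.54, 8.45 and 9.21, below the 10.6, 10.9 and 13.0 of cluster 2 (-0.36, adjusted p = 0.0104) and above cluster 4. Qdpr, which recycles the cofactor of Th, was the other member higher than in cluster 2 (0.31, adjusted p = 0.00194). At equal depth 2 members were higher and 5 lower than in cluster 2. With the set left out of the model only 1 higher and no lower member remained called against cluster 2, so the small losses show as differences within sets.

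Of 10 tested cholinergic genes none was higher in cluster 1 in either comparison, and 3 were lower than in cluster 2 and 8 lower than in cluster 4. Lower calls made up 5.27% and 11.9% of all tested genes. Slc18a3, the vesicular acetylcholine transporter, measured 0.0157, 0.0185 and 0.0134 in cluster 1 and 4.41, 4.71 and 6.20 in cluster 4 (-2.45, adjusted p = 8.11e-12). Chat, the enzyme that makes acetylcholine, was listed at 0 in 2 of the 3 sets. Gfra2, the neurturin receptor, was lower in cluster 1 than in both, at 0.0605, 0.0758 and 0.0440 against 0.895, 1.15 and 0.933 in cluster 2 and 1.82 to 2.03 in cluster 4 (-0.84 and -1.38, adjusted p = 1.16e-07 and 1.83e-10). At equal depth a Gfra2 count was found in 4.17% of cluster 1 cells, 58.7% of cluster 2 cells and 75.9% of cluster 4 cells. Colq, the collagen tail of acetylcholinesterase, was likewise below both. Slc18a3 lies within the Chat locus on the same strand.

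**Figure D3:**
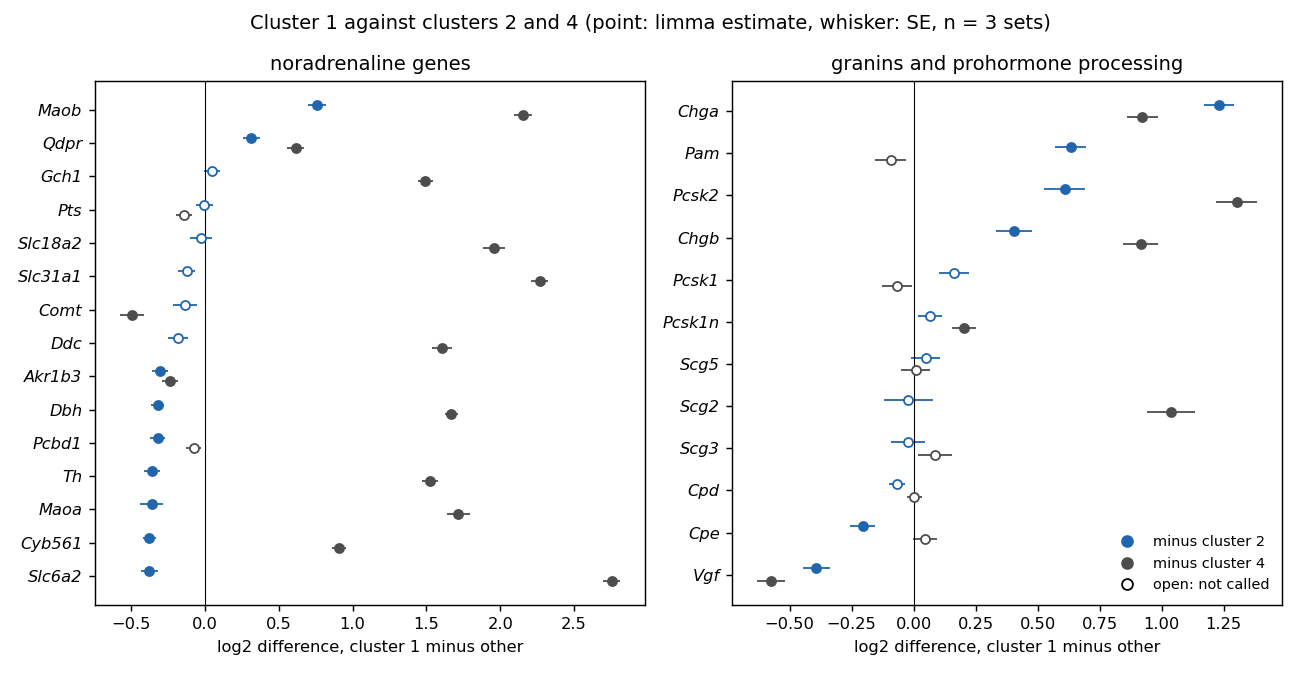
Log2 difference of cluster 1 from cluster 2 (blue) and from cluster 4 (grey) on the x axis for the 15 noradrenaline genes (left) and 12 granin and prohormone genes (right); points are limma estimates, whiskers the SE over 3 sets, open points not called. Most noradrenaline genes lie slightly left of 0 against cluster 2 and well right of 0 against cluster 4, with Maob and Qdpr right of 0 in both.

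Granins and the enzymes that process prohormones could be tested in 12 of 12 cases. Against cluster 2, 4 were higher (Chga, Chgb, Pcsk2 and Pam) and 2 lower (Vgf and Cpe), with a median of 0.06, and against cluster 4, 5 were higher and 1 lower, with a median of 0.07. The shares of all tested genes called in either direction were 8.86% and 21.3%. Pcsk2, a convertase that cuts prohormones, measured 3.14, 3.15 and 2.16 against 1.46, 1.64 and 1.31 in cluster 2 and 0.642, 0.279 and 0.450 in cluster 4 (0.61 and 1.30, adjusted p = 0.000171 and 2.18e-08). Pam, which adds the terminal amide that Npy and galanin carry, measured 3.7, 4.66 and 3.36 against 1.95, 2.74 and 1.87 in cluster 2 (0.63, adjusted p = 6.38e-06), while the sets of cluster 4, at 3.21 to 4.73, overlapped those of cluster 1 (-0.09, adjusted p = 0.339). Vgf, a neuropeptide precursor of the granin family, went the other way and was lower than in both, at 0.306, 0.371 and 0.322 against 0.671 to 0.976 and 0.885 to 1.18 (-0.39 and -0.57). Chgb was 0.41 above cluster 2 (adjusted p = 0.00158), a call lost without Set 2 (0.0516) and without Set 3 (0.0771).

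Of 22 neuropeptide precursors listed, 17 were in the table and 13 could be tested. Npy and Gal were the only members higher than in cluster 2 and Edn3 the only one lower. Against cluster 4, 4 were higher (Npy, Gal, Agrp and Pthlh) and 6 lower, among them Vip, Cartpt (0.0290, 0.209 and 0.0468 against 12.6, 28.1 and 14.7) and Sst (0.0515 to 0.0957 against 2.67 to 5.14). Over all tested genes 3.59% were higher and 5.27% lower than in cluster 2, and 9.49% and 11.9% than in cluster 4. Without Set 1 no precursor was called higher than in cluster 2, while 2 were without Set 2 and 2 without Set 3.

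Of 48 listed receptors for peptides and peptide hormones, 26 were in the table and 13 could be tested. Besides Sctr and Rxfp1, none was called higher than in cluster 2, while Ramp1, Agtr1a and Oprk1 were lower. Ramp1, a partner of the calcitonin-family receptors, measured 2.35, 2.20 and 2.01 against 4.84, 3.75 and 4.18 in cluster 2 (-0.86, adjusted p = 2.34e-07) and 1.37 to 1.85 in cluster 4. Oprk1, the kappa opioid receptor, measured 0.00173, 0.00464 and 0.00867 against 0.273, 0.281 and 0.184 in cluster 2 (-0.27, adjusted p = 2.55e-06). Agtr1a, the angiotensin receptor, was far above cluster 4 (0.869, 0.748 and 1.04 against 0.0138 to 0.0371) and 0.23 below cluster 2. The call against cluster 2 was lost under several settings. Among these were equal depth (adjusted p = 0.102), size factors on summed counts (0.241), a pseudocount of 0.1 (0.158), and the fits without Set 1 (0.0708) and without Set 2 (0.166). It was kept without Set 3 (0.0316). Against cluster 4, 8 of the 13 were higher and 1 lower, beside 9.49% and 11.9% of all tested genes. Against cluster 2 the shares of all tested genes were 3.59% and 5.27%.

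Among transcription factors that specify sympathetic neurons, 16 were tested. Of these, 2 were higher (Hmx1 and Sox4) and 4 lower (Ebf1, Lmo1, Satb1 and Tbx20) than in cluster 2. The median there was 0.02, and 8.86% of all tested genes were called. Against cluster 4, 9 were higher and 3 lower, with a median of 0.19, where 21.3% of all tested genes were called. At equal depth 1 was higher and 1 lower than in cluster 2. Hmx1, a homeobox factor, measured 1.17, 1.11 and 1.13 in cluster 1, 0.643, 0.672 and 0.694 in cluster 2 and 0.170, 0.181 and 0.366 in cluster 4 (0.34 and 0.75, adjusted p = 0.000444 and 4.45e-08). Ebf1 ran in the reverse order, at 1.02, 1.20 and 1.01, then 1.85, 2.03 and 1.77, then 3.09, 3.22 and 3.16 (-0.49 and -1.04). Phox2a, Hand2 and Gata3, which hold the noradrenergic fate, did not pass the threshold against cluster 2, with differences from -0.14 to 0.21.

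Hox genes mark position along the body axis. Of 13 listed, 6 could be tested and 2 were called higher than in cluster 2, as were 3.59% of all tested genes. Hoxc8 measured 0.548, 0.685 and 0.617 in cluster 1 against 0.0763, 0.111 and 0.0805 in cluster 2 (0.47, SE 0.04, adjusted p = 8.54e-07). Hoxc9 measured 0.369, 0.426 and 0.505 against 0.0169, 0.0458 and 0.00427 (0.37, adjusted p = 8.54e-07). Both had several times their cluster 2 level in every set. In cluster 4 Hoxc8 stood at 0.392 to 0.570 and Hoxc9 at 0.131 to 0.186. The call of Hoxc8 against cluster 4 was lost at equal depth and without Set 2, and Hoxc8 and Hoxc9 both overlap Hoxc5 on the same strand.

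Fst belongs to activin and bone morphogenetic protein (BMP) signalling, a pathway in which ligands bind paired receptors and act through Smad proteins. Of 44 listed genes 27 could be tested. Among extracellular binders of the ligands, Fst was up, Fstl1 was higher than in cluster 2 (0.351, 0.432 and 0.476 against 0.0333, 0.0441 and 0.0684), and Fstl5 and the BMP antagonist Nbl1 were lower. Nbl1 measured 2.62, 2.75 and 3.88 against 5.79, 6.06 and 8.07 in cluster 2 (-0.96, adjusted p = 1.14e-08), and 1.73 to 3.23 in cluster 4. Among ligands, Bmp4 was higher than in both (0.266, 0.305 and 0.191 against 0.00348 to 0.0461 and 0 to 0.0539) and Bmp3 was lower than in cluster 4. No receptor was called against cluster 2, and of the Smads only the inhibitory Smad7 was, by 0.14. With Bambi and Id2 this made 6 higher and 2 lower of 27 against cluster 2, and 5 and 7 against cluster 4, and at equal depth 3 and 2, and 3 and 4. All tested genes gave 3.59% higher and 5.27% lower against cluster 2, and 9.49% and 11.9% against cluster 4.

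Eph receptors and ephrins guide growing axons by contact. Of 10 tested, Epha5 was the only member higher than in cluster 2 and Efna5 the only one lower, the latter at 0.702, 0.987 and 1.15 against 1.17, 1.51 and 1.54 (-0.32, adjusted p = 0.00411, lost at equal depth, without Set 1 and without Set 2). Of 20 tested semaphorin, plexin, neuropilin, netrin and slit genes, 2 were higher and 2 lower than in cluster 2, and 1 and 2 at equal depth. For both lists the share called among all tested genes was 8.86%. The neuropilins, coreceptors for semaphorins, went in opposite directions. Nrp1 measured 0.709, 0.952 and 0.811 against 0.248, 0.286 and 0.233 in cluster 2 (0.49, adjusted p = 2.45e-05), and Nrp2 measured 0.107, 0.121 and 0.0764 against 0.499, 0.519 and 0.392 (-0.39, adjusted p = 3.5e-06). Ntng1, a membrane-bound netrin, was 0.76 below cluster 2 and 0.41 above cluster 4, the latter call being lost at equal depth.

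Receptors for neurotrophic factors were lower than in cluster 2 in 4 of 12 tested cases and higher in 1, and at equal depth 2 were lower and 1 higher. Among all tested genes 5.27% were lower and 3.59% higher. Gfra3, the artemin receptor, was higher in cluster 1 than in both, at 0.383, 0.343 and 0.666 against 0 to 0.0183 in cluster 2 and 0 to 0.0266 in cluster 4 (0.40 in both, adjusted p = 6.38e-06 and 2.66e-06). Gfra3 and Gfra2, both coreceptors for ligands of the GDNF family, thus went in opposite directions.

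Among 19 tested calcium sensors and calcium-binding proteins, 5 were higher and 3 lower than in cluster 2, and 8 higher and 4 lower than in cluster 4.  Over all tested genes 8.86% and 21.3% were called in either direction. At equal depth the counts for this list were 3 and 1, and 6 and 2. Caln1, a calmodulin-like protein, measured 0.725, 0.789 and 0.739 in cluster 1 against 0.0216 to 0.0607 in cluster 2 and 0 to 0.0501 in cluster 4 (0.67 and 0.68, adjusted p = 3.32e-09 and 7.46e-10). Hpca, a neuronal calcium sensor, was also called higher than in both (0.383, 0.561 and 0.533 against 0.184 to 0.238 and 0.0793 to 0.129), the call against cluster 2 being lost at equal depth. Necab1, a neuronal calcium-binding protein, was lower than in both. The calmodulin gene Calm3 was called lower than in cluster 2 (-0.18), and this was lost at equal depth.

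For acetylcholine and adrenergic receptors, through which preganglionic input and noradrenaline itself act, 10 were tested. Adra2a, an inhibitory receptor for noradrenaline, was lower than in both clusters, at 0.245, 0.263 and 0.198 against 0.979, 1.07 and 0.626 and 0.496 to 0.689 (-0.58, adjusted p = 1.01e-05, and -0.31, adjusted p = 0.00173, the latter lost at equal depth). Its relatives Adra2b and Adra2c did not pass against cluster 2 and were higher than in cluster 4. Chrm2, a muscarinic receptor, measured 1.04, 1.16 and 1.04 against 0.471, 0.631 and 0.532 in cluster 2 (0.40, adjusted p = 5.85e-05). The nicotinic subunit Chrna3 was called lower than in cluster 2 (-0.20), a call lost at equal depth.

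Of 33 tested genes of the vesicle release machinery, 3 were higher and 9 lower than in cluster 2, and 1 and 5 at equal depth. The shares over all tested genes were 3.59% higher and 5.27% lower. Syn2, a synapsin that tethers vesicles, was the clearest gain, at 15.2, 17.2 and 17.6 against 8.73, 9.93 and 9.76 in cluster 2 and 9.29 to 9.53 in cluster 4 (0.76 in both, adjusted p = 6.55e-08 and 2.06e-08). Syt1, the calcium sensor of fast release, was lower than in cluster 2 within each set (25.4, 23.1 and 15.5 against 30.0, 27.5 and 19.0, -0.27) and higher than in cluster 4 (1.03). Cplx1 was lower than in both (-0.73 and -0.61).

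Among 34 tested potassium channel genes, 3 were higher and 8 lower than in cluster 2, which became 2 and 1 at equal depth. For this list and the next, 3.59% of all tested genes were higher and 5.27% lower. Kcnmb4, a subunit of the calcium-activated BK channel, measured 1.55, 1.65 and 1.25 against 0.310 to 0.403 in cluster 2 and 0.0876 to 0.185 in cluster 4 (0.80 and 1.06, adjusted p = 5.93e-08 and 1.13e-09). The annotated antisense gene Kcnmb4os2 moved the same way, and reads of the pair cannot be told apart unless counting used the strand. Of 26 tested sodium, calcium and HCN channel genes, 3 were higher and 3 lower than in cluster 2, and 1 and 1 at equal depth. Scn3b, a sodium channel subunit, measured 1.42, 1.77 and 1.65 against 0.511, 0.646 and 0.506 in cluster 2 and 0.631 to 0.886 in cluster 4 (0.71 and 0.55, adjusted p = 8.30e-07 and 4.42e-06).

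Neurofilament and other cytoskeletal genes tested numbered 19, with 6 higher and 2 lower than in cluster 2, or 3 and 2 at equal depth. All tested genes gave 3.59% higher and 5.27% lower. Nefm, the middle neurofilament chain, stood between the other clusters, at 2.93, 3.14 and 2.93 against 1.52, 1.62 and 1.48 in cluster 2 (0.62, adjusted p = 2.55e-06) and 3.89, 3.5 and 3.84 in cluster 4 (-0.27, adjusted p = 0.00289, lost at equal depth and without Set 3). Nefl, the light chain, did not pass against cluster 2 and was 1.24 lower than in cluster 4 on the log2 scale. Gap43, a growth-cone protein, was lower than in cluster 2, by 0.41.

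Nuclear genes for subunits of oxidative phosphorylation (OXPHOS), the respiratory chain of mitochondria, were called lower in cluster 1 more often than higher. Their summed level was 448 to 523 counts per 10000 over the sets of cluster 1, 515 to 591 in cluster 2 and 581 to 675 in cluster 4, so that clusters 1 and 2 overlapped. Of 72 tested, 24 were called lower and 1 higher (Ndufs4) than in cluster 2, with a median log2 difference of -0.12, and 52 lower and 1 higher than in cluster 4, with a median of -0.27. Lower calls over all tested genes were 5.27% against cluster 2 and 11.9% against cluster 4. The OXPHOS medians kept their sign at equal depth (-0.12 and -0.26) and with size factors on summed counts (-0.12 and -0.29). Cox6c, a subunit of cytochrome c oxidase, measured 11.4, 11.5 and 9.53 in cluster 1, 17.4, 15.3 and 14.4 in cluster 2 and 16.8, 15.2 and 13.8 in cluster 4 (-0.51 and -0.46, adjusted p = 1.76e-06 and 1.77e-06). Atp5e, of the ATP synthase, showed the same pattern (-0.45 and -0.38). For Cox8a the ranges of clusters 1 and 2 overlapped, as did those of clusters 2 and 4 (12.8, 10.9 and 9.76, then 16.5, 13.8 and 12.4, then 19.9, 15.7 and 15.5). Within each set cluster 1 was lowest and cluster 4 highest. Calls against cluster 2 numbered 14 lower at equal depth and none without the set in the model, and called shares run higher among abundant genes, since 732 of 3383 genes with a mean of at least 0.5 were called when tested alone. The 8 tested genes of the mitochondrial genome gave no call against cluster 2.

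**Figure D4:**
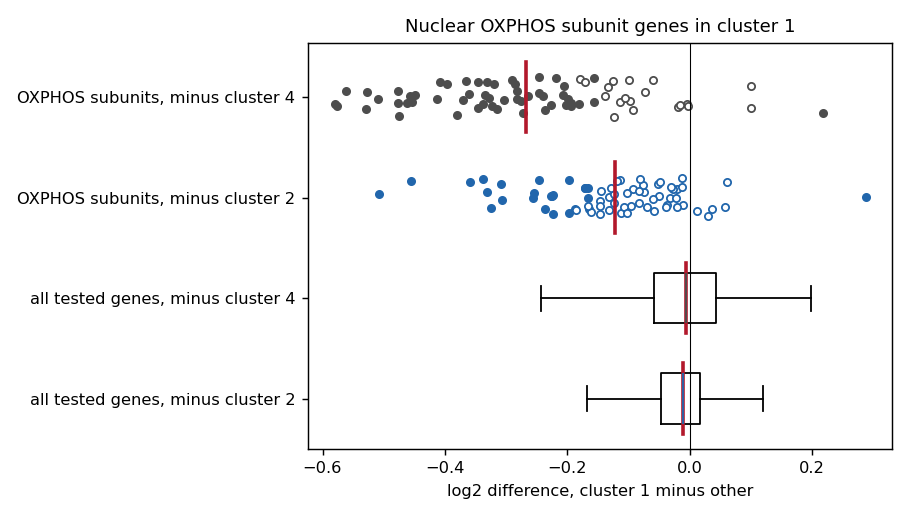
Log2 difference of cluster 1 from clusters 2 and 4 (x axis) for 72 nuclear OXPHOS subunit genes (points, filled where called) and for all 10564 tested genes (boxes: quartiles, whiskers: 5th to 95th percentile); red lines are medians. The OXPHOS medians of -0.12 and -0.27 lie left of the medians of -0.01 for all genes.

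Genes of cytosolic ribosomal proteins tested numbered 79, and 15 were higher and none lower than in cluster 2, with a median of 0.03, where 3.59% of all tested genes were higher. The count of 15 became 4 higher at equal depth and 1 without the set in the model. Against cluster 4 there were 3 higher and 2 lower, beside 9.49% and 11.9% of all tested genes. Rps18 measured 2.61, 2.54 and 2.60 against 2.02, 1.87 and 1.96 in cluster 2 (0.29, adjusted p = 0.00156). Many ribosomal protein genes have near-identical processed copies, so their counts are uncertain.

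Immediate early genes respond to activity and to dissociation of tissue. Of 16 tested, none was higher and 11 were lower in cluster 1 than in cluster 4, and 2 (Dusp1 and Klf6) were higher than in cluster 2, none of them at equal depth. Over all tested genes 11.9% were lower than in cluster 4 and 3.59% higher than in cluster 2. Btg2 measured 0.118, 0.241 and 0.196 against 0.628 to 0.803 in cluster 4 (-0.47, adjusted p = 1.66e-06), and Fos 0.271, 0.399 and 0.639 against 0.737 to 1.22 (-0.44, adjusted p = 2.08e-05). The part of handling in these values was not tested.

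Markers of other cell types ranged widely in summed level in cluster 1. Red blood cell markers reached at most 0.00688 counts per 10000 in any set, and chromaffin cell markers 17.1 to 22.1. The summed level of 15 glial and Schwann cell markers was 12.3 to 15.2 counts per 10000 over the sets of cluster 1, 14.5 to 24.4 in cluster 2 and 21.9 to 44.5 in cluster 4, and 4 of 10 testable members were lower than in cluster 4, led by S100b and Pmp22. Of all tested genes 11.9% were lower than in cluster 4. Without the cells richest in glial counts in each set and cluster, 851 genes were called against cluster 2 and 2163 against cluster 4. Endothelial markers summed to 1.02 to 1.4, nearly all of it Egfl7, with Cdh5 and Kdr at 0. Fibroblast markers summed to at most 0.178 and macrophage markers to at most 0.286, and none of the lymphocyte markers was in the table. Mural cell markers summed to 0.602 to 1.38, with Kcnj8 and Notch3 at 0, and nearly all of this was Rgs5, which was higher than in cluster 2 (0.42) and cluster 4 (0.65). Chromaffin cell markers summed to 17.1 to 22.1, and these include Chga, Chgb and Cyb561, which sympathetic neurons also express. Sensory neuron markers summed to 2.90 to 4.23, nearly all of it Avil, against 2.72 to 3.59 in cluster 2 and 2.68 to 4.73 in cluster 4. Brown fat and muscle markers summed to 0.511 to 0.647, against 1.01 to 1.26 and 1.99 to 2.54.

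Inside cluster 1 cells differed most, for their level, in Apoe, Tspan8, Gal, B230312C02Rik, S100a6, Htr3a, Myl1, Crip1, Arg1 and Chga. This ranking sets the SD over cells at equal depth, within each set, beside that of genes of like mean, over 3343 genes, and it is a description with no test. Gal had an SD of 1.20 on the log2 scale (0.0281 between sets), with 12 counts at the 10th percentile of cells and 96.7 at the 90th. Npy was far more even, with an SD of 0.700 and a coefficient of variation of 31.9% beside 56.2% for Gal. Ncald had an SD of 0.513 and a coefficient of variation of 36.3%. Apoe, a lipid carrier made by glia, was found in 38.5% of cluster 1 cells and is itself 1 of the 15 glial markers listed above.

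Gal varied together with a group of genes and against another. Correlations are Spearman's rho over the 384 cluster 1 cells at equal depth, computed within each set and averaged. They carry no p because cells of a set come from the same pooled ganglia and are not replicates. Of 2519 candidate genes, those most like Gal were Chga (rho 0.607, from 0.561 to 0.636 over the sets), Anxa5 (0.467), Thy1 (0.459), Ecel1 (0.430) and Rgs4 (0.406). Those running most against it were Myl1 (-0.627, from -0.653 to -0.592), a myosin light chain, Htr3a (-0.572, from -0.607 to -0.530), the ionotropic serotonin receptor, Vstm2l (-0.396), Rpl14 (-0.379) and Ngfr (-0.354). Htr3a and Myl1 varied together (0.594), and both ran against Chga (-0.658 and -0.591). The correlation of Gal with the counts of the cell before thinning was -0.217, with that of Htr3a at 0.0666 and of Myl1 at 0.0148.

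The pattern can also be read from the cells at the ends of the Gal range, which were chosen by their Gal. The 95 cells in the lowest 25% of each set held a median of 14 Gal counts, with 21, 12 and 10 in Sets 1, 2 and 3, and the 97 in the highest 25% held 92, with 101, 73 and 93. In the low end 89 of 95 cells (93.7%) held an Htr3a count and 90 (94.7%) a Myl1 count, against 23 of 97 (23.7%) and 27 of 97 (27.8%) at the high end. Median Chga was 1 count at the low end of every set and 7, 5 and 6 at the high end. Median Thy1 went from 1 to 5. Npy ran the other way by a small margin, with medians of 210.5, 204.5 and 188 at the low end and 179, 176 and 154 at the high end, and Dbh had medians of 20 and 23. Cells with little Gal thus still held much Npy and Dbh.

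Npy itself tracked Gal weakly and inversely (rho -0.162, from -0.205 to -0.117 over the sets). The genes most like Npy were Crip1 (0.366), Plscr1 (0.351), Pcp4 (0.323), Fxyd5 (0.313) and Kcnmb4 (0.308), and those running against it were Thy1 (-0.431), Ddah1 (-0.329), Omp (-0.321), Arpc1b (-0.314) and Rgs4 (-0.289). Thy1 thus stood at the Gal end and at the low Npy end. Of the other markers, Fst followed Npy (0.296) and not Gal (-0.00955), while Sctr was closer to Gal (0.352) than to Npy (0.186). In the 329 cells of cluster 2 the same pairs were looser: rho was 0.337 for Gal and Chga, -0.174 for Gal and Htr3a, -0.190 for Gal and Myl1 and 0.0954 for Htr3a and Myl1. Gal and Thy1 gave -0.0384 there against 0.459 in cluster 1, and Gal and Npy gave 0.125 against -0.162. Chga, Thy1, Htr3a and Myl1 had been picked for their extreme rho with Gal in cluster 1, so the clusters are not compared evenly. Cluster 2 cells held a median of 7 Gal counts against 54, and the difference between clusters was not tested.

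**Figure D5:**
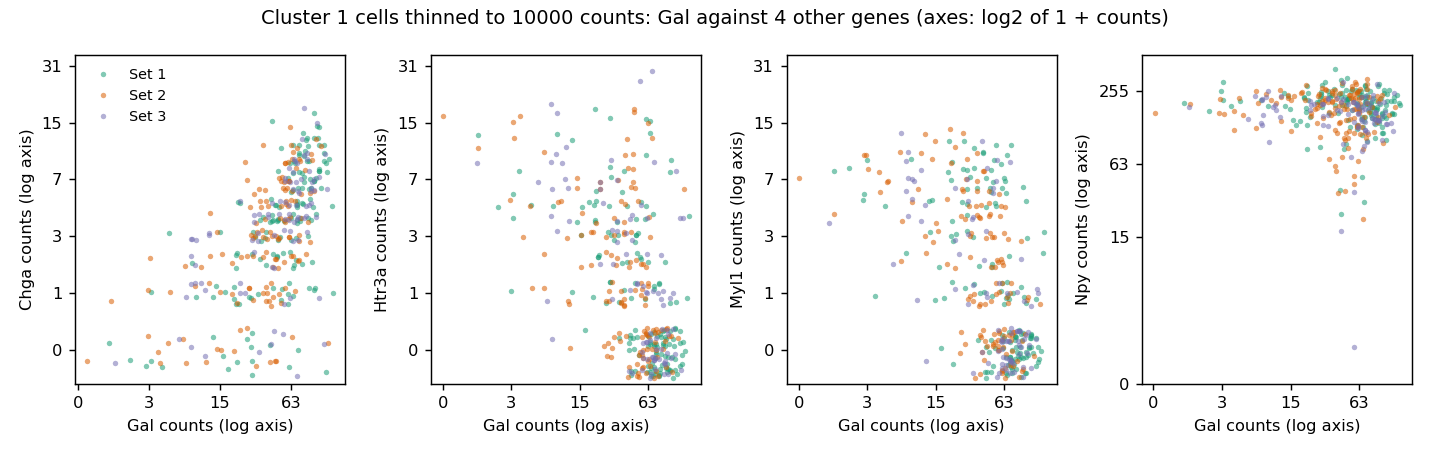
Gal counts (x axis) against Chga, Htr3a, Myl1 and Npy counts (y axes) in the 384 cells of cluster 1 thinned to 10000 counts, on log2(1 + counts) scales with a small random offset to part tied points; colours are sets. Chga climbs with Gal, Htr3a and Myl1 pile up at 0 where Gal is high, and Npy shows only a slight fall, from set medians of 188 to 210.5 among cells with least Gal to 154 to 179 among those with most.

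Most genes of cluster 1 were steady between sets. Of 1874 genes with at least 1 count per 10000, 62 (3.31%) differed by more than 2-fold between the highest and the lowest set, and the median ratio was 1.26. The widest were Rn18s-rs5 (67.0, 63.1 and 6.21 in Sets 1, 2 and 3), a ribosomal RNA fragment, and Ppia (7.23, 1.16 and 1.28), neither of which is a marker. Over the 11 plates cluster 1 held 160 to 202 Npy counts per 10000 and 39.9 to 68.8 Gal counts per 10000, so every plate alone kept Npy and Gal above the set means of clusters 2 and 4.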

How the data were processed

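The deposited table held the natural log of 1 plus counts per 10000 counts of a cell, made by the authors for 19444 genes and 878 cells, and undoing the log gave whole counts for 100% of values within 0.001. The submitters' processing notes name STAR 2.5.3a, featureCounts 1.5.3, SAMtools 1.4.1, Seurat and build GRCm38. No source used here gives the clustering method or the strand setting of the counting.

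Cluster 1 held 11359733 of 30518080 counts, and plates held 2050165 to 3373157. Cells were averaged per set and cluster as log2(1 + counts per 10000), and clusters 1, 2 and 4 were compared with limma 3.58.1 (R 4.3.3; trend, robust) with the set as a block, since the clusters of a set come from the same pooled ganglia. Genes needed a mean of 0.05 counts per 10000. With the set as a block, a p-value measures how evenly a cluster difference repeated over the 3 sets of 2 pooled mice. The spread behind it is shared over clusters 1, 2 and 4 and adjusted towards that of other genes. No doublet caller was run, and no cell of clusters 1, 2 and 4 was left out of the main fit. Alternatives left out the 10% richest in glial counts, cells under 10000 counts at equal depth, or 1 set. Figures were drawn with matplotlib 3.10.9, and other summaries were computed in Python 3.11.15 (pandas 2.3.3, numpy 2.4.6) with intervals from scipy 1.17.1. The test was tried on cluster 1 cells split at random within each set, with chosen genes thinned by known factors, and its outcome is not given here.

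Named genes are the 8 markers, the 10 largest non-overlapping calls of each direction with at least 1 count per 10000, the 4 tested members per list with the largest differences, the 10 most variable genes and the 5 most like Npy or Gal in each direction. The members and lists were chosen with earlier results of these data known, and other list members are named for their role with their values seen. Of 114 named genes all have a GENCODE M21 position, and 47 overlap a gene on the opposite strand. Results for a few list members are not reported here.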

Additional observations from a re-analysis of the deposited data

Results flagged for a closer look

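Fst in cluster 1 stood apart on 1 plate. In Set 1, plate 1 had 3.07 counts per 10000, while the other plates of the set lay between 1.92 and 2.00, a gap of 0.925 of the whole range, above Dixon's 95% critical value for 4 values. Of 20 groups of plates examined 1 was singled out, and chance does so in about 1 of 20.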

How the results depend on the processing

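No named gene that was called changed direction under the alternatives run. Against cluster 2 the 936 calls became 346 with cells thinned to 10000 counts, 414 with cluster 3 in the model and 423 to 561 with 1 set left out. Against cluster 4 the 2254 calls became 1153, 1286 and 1473 to 1519, and 1243 of 3383 genes with a filter at 0.5 counts per 10000. Without the set as a replicate block 282 and 920 genes were called, and 41 of the named results were no longer called, as against 24 with thinned cells. Of the 2254 genes, 20 had the other sign in the thinned fit. Median-of-ratios size factors gave 1295 higher and 1103 lower genes against cluster 4. The SD of Gal between cells was 1.20 at equal depth and 1.17 with all counts. The cause of these shifts was not tested. Cluster 4 rests on 54 cells, which limits what can be seen for low genes.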
